A study of Homo sapiens with 4 samples.

Results

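The interleukins and interleukin receptors are described here in NB4-R4 cells, as the 83 genes whose single platform symbol begins with IL and a digit, of 17687 genes measured. They comprised 37 genes of activating ligands, 38 of receptor chains and 8 of antagonists, decoys or anti-inflammatory relatives. CXCL8, which encodes interleukin 8 under a chemokine symbol, fell outside the rule and is given with the partner genes. NB4-R4 derives from NB4, a line of acute promyelocytic leukaemia, and is a subclone resistant to all-trans retinoic acid. The groups were NB4-R4 cells given MK-8776, an inhibitor of the checkpoint kinase CHK1, at 4 µM for 96 h, and NB4-R4 cells given the vehicle DMSO for 96 h. Each group had 2 Affymetrix arrays of total RNA, and a single subclone was used throughout. Per the labels the 2 arrays of each condition are biological replicates, but how the cultures were kept apart is not said, so a p-value here reflects only the variation among these 4 samples.

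Interleukins are secreted proteins through which leukocytes signal to one another. Most bind a receptor of several chains, of which a private chain often recognises the ligand and a shared chain passes the signal to JAK kinases and STAT factors. The IL-1 family signals instead through MYD88 and IRAK kinases to NF-kB, and it is held in check by a receptor antagonist, decoy receptors and binding proteins. In myeloid cells IL-1β is a main inflammatory product, made as a precursor that caspase-1 cleaves.

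Values are RMA expression, taken to be on the log2 scale, where a difference of 1 is a doubling. Levels are given per array, and changes are MK-8776 minus DMSO with the standard error (SE) and the adjusted p of a limma fit over all 17687 genes, with a threshold of 0.05. The lower quartile of all values was 3.97 and the median 5.77, and a gene whose mean was under that quartile with and without MK-8776 is called dim here. The promyelocyte gene MPO, which encodes myeloperoxidase, measured 14.81 and 15.36 in MK-8776 against 16.09 and 16.27 in DMSO. Its change of -1.095 just missed the threshold (adjusted p = 0.0514, limma). It passed after quantile normalization (0.0467), among genes above the median level (0.0303) and with variance trends (0.00258, and 0.00276 if robust). It missed in the other settings that kept every array, such as a fold of 1.2 (0.129). Of the 7 measured promyelocyte and granulocyte markers 2 fell, where CTSG fell by 2.20 and PRTN3 fell by 2.01, and 5 did not pass. The share of all genes called was 2.02% downward and 1.66% upward. Changes were negative for 6 of the 7, with a median of -1.095 beside 0.005 over all genes. Of 10 measured lymphoid, erythroid and mast cell markers 0 rose and CD3E fell by 1.38 (adjusted p = 0.0574 against a fold of 1.2 and 0.0663 with the replicate block, limma). At an unadjusted p under 0.05, 2 were higher and 2 lower (limma), beside 8.61% and 10.2% of all genes. Their mean levels were 6.10 and 6.01 in MK-8776 and 6.11 and 6.06 in DMSO, a mean over changes of both signs. CD3G and MS4A1 were dim, while CD79A and CD79B lay above the upper quartile of all values (9.21) on every array. The part of these shifts in the interleukin results was not tested. In bulk RNA, fewer cells of a type and less RNA per cell cannot be told apart.

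Among the interleukins and receptors, 4 genes rose after MK-8776 and 1 fell. The rises were in IL1B, which encodes IL-1β, its antagonist gene IL1RN, the cytokine gene IL32 and the IL-10 receptor chain gene IL10RA. The fall was in IL6R, the gene of the ligand-binding chain of the IL-6 receptor. The 5 calls were 6.02% of the 83 members, beside 3.69% of all genes tested, and for all genes the shares were 1.66% upward and 2.02% downward. By role, 2 of 37 ligands rose, 1 of 38 receptor chains rose and 1 fell, and 1 of 8 antagonists and decoys rose. The median change was 0.095 over the members and 0.005 over all genes. The arrays of the groups did not overlap for 41 members (49.4%), close to the 48.2% of all genes. Of the 83 members, MK-8776 lay wholly above DMSO in 27 and wholly below in 14. Of all 17687 genes it lay above in 4245 (24.0%) and below in 4275 (24.2%). At an unadjusted p under 0.05, 12 members were higher and 7 lower, beside 8.61% and 10.2% of all genes and 18.8% in either direction. Leaving out 1 array left a group with a lone array, assumed to vary like the other group, and calls over all genes then numbered 0 to 34 in place of 652. None of the 5 members passed in these smaller fits, and each kept its direction, with changes of 2.325 to 2.965 for IL1B, 1.545 to 1.875 for IL32, 1.29 to 1.83 for IL1RN, 1.415 to 2.585 for IL10RA and -1.71 to -1.13 for IL6R. Without DMSO replicate 1, DMSO replicate 2, MK-8776 replicate 1 or MK-8776 replicate 2, the limma fit called 0 members upward and 0 downward, with 9, 6, 11 and 12 members higher and 4, 5, 4 and 8 lower at an unadjusted p under 0.05.

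**Figure D1:**
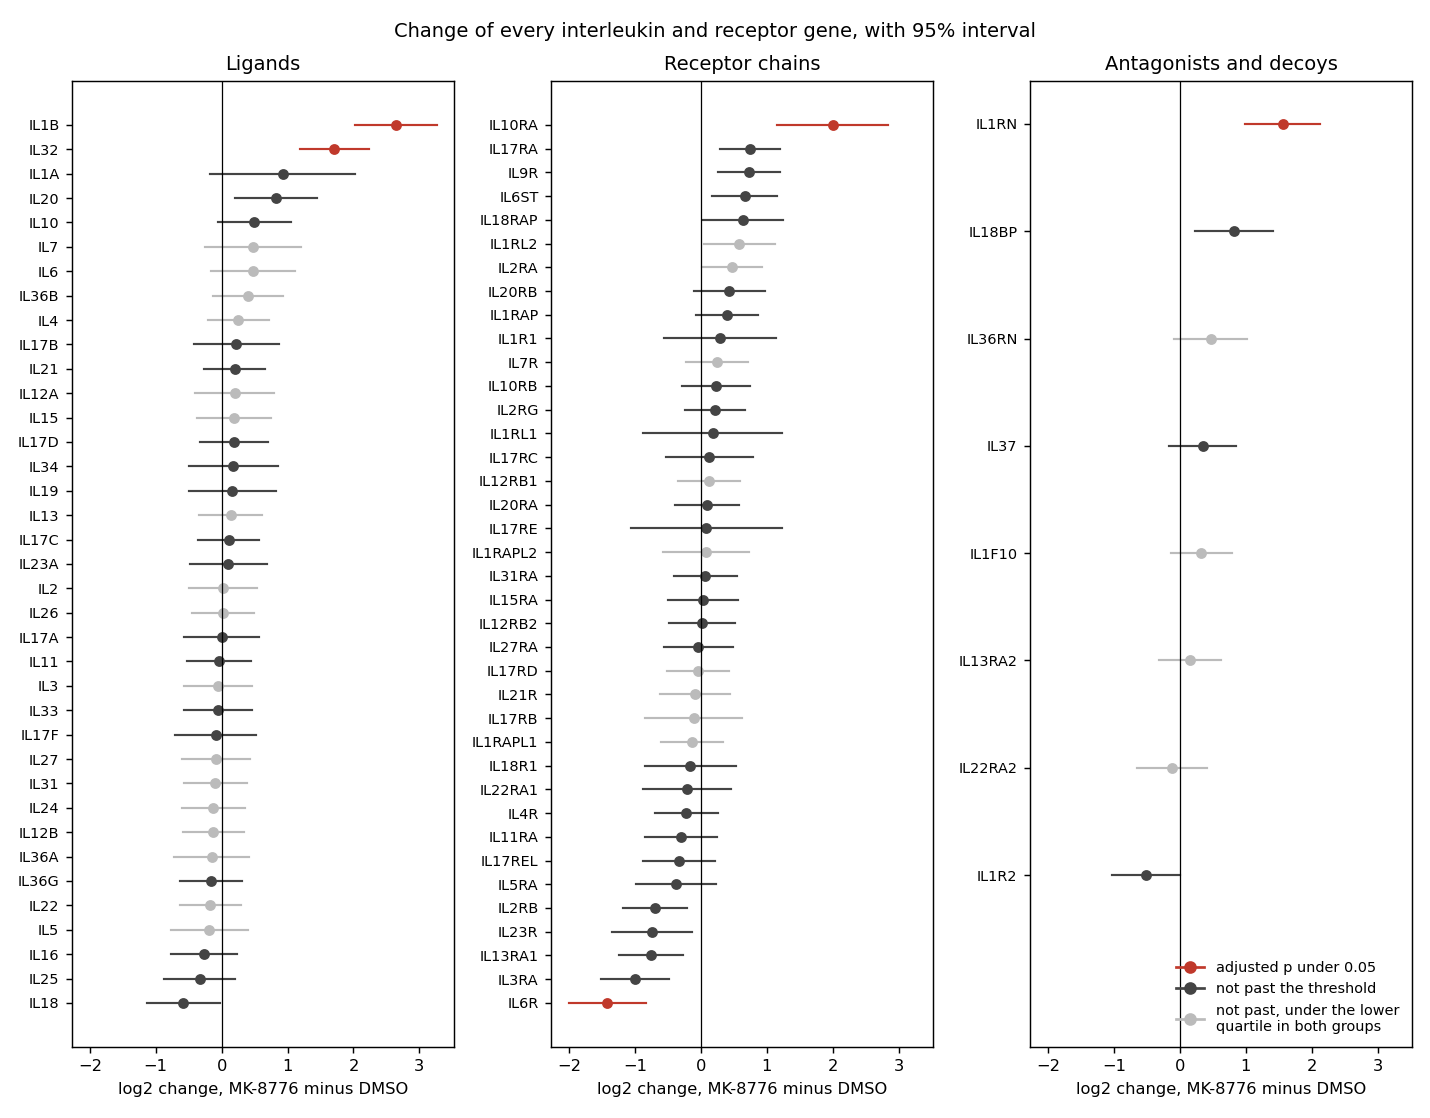
Each point is the log2 change (MK-8776 minus DMSO) of a gene and each bar its 95% interval from the limma fit, for 37 ligands, 38 receptor chains and 8 antagonists and decoys. Red marks the 5 genes past the threshold, dark grey the others and light grey those of the others that were dim.

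The plot of changes by role shows most genes near 0 with the called genes at the ends. 30 members were dim, beside 22.3% of all genes, 17 of them ligands, 9 receptor chains and 4 antagonists or decoys, and 53 were not. Array values of the dim members ran from 2.43 to 4.11 in MK-8776 and from 2.41 to 4.08 in DMSO, and their changes from -0.185 to 0.585. For them the lack of a call says little. They included IL2, IL3, IL4, IL5, IL6, IL7, IL13 and IL15 among the ligands.

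IL1B (chromosome 2, 112829751 to 112836779, GRCh38) had the largest change of the 83. It measured 14.33 and 14.70 in MK-8776 against 12.19 and 11.55 in DMSO. Both MK-8776 arrays lay above both DMSO arrays, and the gene was well above the median of all values in each group. It averaged 14.52 ± 0.26 in MK-8776 and 11.87 ± 0.45 in DMSO (SD, n = 2 each), a change of 2.65 (SE 0.27, adjusted p = 0.00374, limma) or 6.25-fold.

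IL1RN (chromosome 2, 113099360 to 113134014) encodes the IL-1 receptor antagonist, which occupies the receptor without signalling. It measured 11.21 and 10.67 in MK-8776 against 9.52 and 9.24 in DMSO, again with no overlap. The change was 1.56 (SE 0.25, adjusted p = 0.0174, limma), a 2.95-fold rise. The 95% intervals were 0.99 to 2.13 for IL1RN and 2.02 to 3.27 for IL1B. They overlap in part, and a difference between the rises of antagonist and agonist was not tested.

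IL32 (chromosome 16, 3065403 to 3069530) encodes a cytokine unlike the other families in sequence, known to induce TNF and interleukin 8. It measured 15.40 and 15.73 in MK-8776 against 14.01 and 13.70 in DMSO. The rise was 1.71 (SE 0.23, adjusted p = 0.00881, limma), or 3.27-fold, and the groups did not overlap.

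IL10RA (chromosome 11, 117986394 to 118003037) encodes the private, ligand-binding chain of the receptor for the anti-inflammatory cytokine IL-10. It measured 7.95 and 8.38 in MK-8776 against 6.75 and 5.58 in DMSO. The groups did not overlap, but the DMSO arrays differed by more than 1, so the size of the rise is the least certain of the 5. The change was 2.00 (SE 0.37, adjusted p = 0.0269, limma), with a 95% interval from 1.16 to 2.84. With the replicate number as a block it missed the threshold (adjusted p = 0.0813).

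IL6R (chromosome 1, 154405343 to 154469450) measured 7.03 and 6.45 in MK-8776 against 8.30 and 8.02 in DMSO. All 4 values lay above the median of all values, with the MK-8776 arrays below both DMSO arrays. The gene fell by 1.42 (SE 0.26, adjusted p = 0.0253, limma), to 0.374 of its DMSO level. Tested against a fold of 1.2 in place of no change, it missed the threshold (adjusted p = 0.0534).

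**Figure D2:**
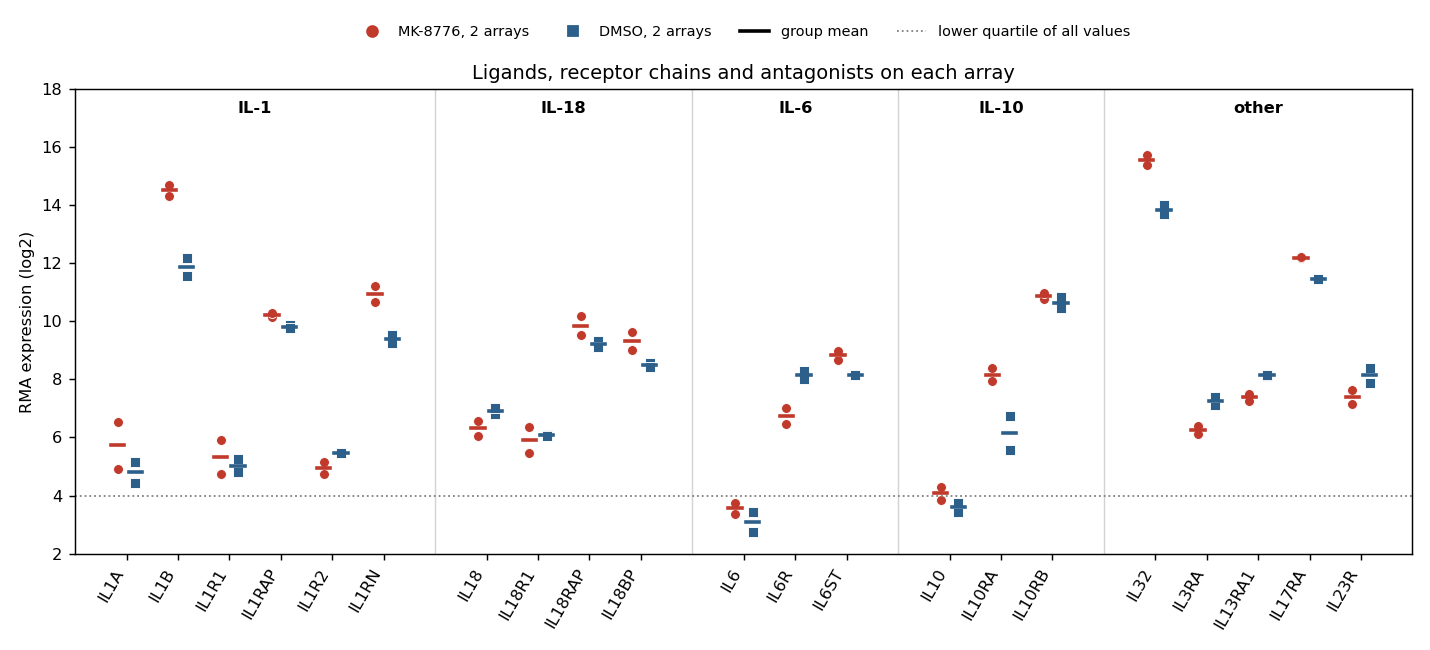
RMA expression (log2) on each of the 4 arrays, MK-8776 (red circles) left of DMSO (blue squares), with bars at the group means and a dotted line at the lower quartile of all values (3.97). IL1B, IL1RN, IL32 and IL10RA lie higher in MK-8776 with no overlap, IL6R lies lower, and IL6 sits under the dotted line in both groups.

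The starts of these 5 genes are shown because they are the members past the threshold. Each window is the 250 bases before a transcription start in RefSeq (GRCh38.p14), read 5′ to 3′ on the gene's own strand. The table gave 3 starts for IL1RN, of which the last overlapped the second and is not shown, and 2 for IL32. The annotated spans of IL1RN and IL10RA begin further upstream than the windows shown. The array does not tell which start was used. Capitals mark any match, on either strand, to 6 motifs. These were the TATA box as TATAAA, which positions the polymerase at many promoters, and the AP-1 motif of FOS and JUN factors as TGANTCA. The antioxidant response element was taken as TGACNNNGC, the C/EBP motif as TTNNGNAA, and NF-kB by its usual consensus. The last was the core bound by the myeloid factor PU.1, GAGGAA.
IL1B (chr2:112836780-112837029, minus strand): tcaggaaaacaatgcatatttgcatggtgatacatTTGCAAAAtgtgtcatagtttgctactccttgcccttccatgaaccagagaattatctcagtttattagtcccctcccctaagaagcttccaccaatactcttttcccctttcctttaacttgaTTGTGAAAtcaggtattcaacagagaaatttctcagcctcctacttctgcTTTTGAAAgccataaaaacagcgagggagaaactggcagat
IL1RN, first start (chr2:113117721-113117970, plus strand): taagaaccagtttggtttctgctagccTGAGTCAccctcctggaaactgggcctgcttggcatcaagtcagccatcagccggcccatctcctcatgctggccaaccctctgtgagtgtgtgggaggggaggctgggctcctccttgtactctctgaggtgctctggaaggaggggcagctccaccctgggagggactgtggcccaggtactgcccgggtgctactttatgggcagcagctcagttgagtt
IL1RN, second start (chr2:113127239-113127488, plus strand): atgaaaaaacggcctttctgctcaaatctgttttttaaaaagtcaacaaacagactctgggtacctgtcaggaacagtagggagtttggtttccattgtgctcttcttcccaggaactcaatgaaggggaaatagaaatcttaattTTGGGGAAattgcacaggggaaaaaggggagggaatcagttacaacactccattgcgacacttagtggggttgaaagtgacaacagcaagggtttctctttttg
IL32, first start (chr16:3065153-3065402, plus strand): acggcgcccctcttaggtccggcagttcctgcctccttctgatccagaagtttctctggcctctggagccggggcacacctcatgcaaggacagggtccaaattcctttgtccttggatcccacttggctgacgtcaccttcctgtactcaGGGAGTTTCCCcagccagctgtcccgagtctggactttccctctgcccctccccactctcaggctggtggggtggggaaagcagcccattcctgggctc
IL32, second start (chr16:3065534-3065783, plus strand): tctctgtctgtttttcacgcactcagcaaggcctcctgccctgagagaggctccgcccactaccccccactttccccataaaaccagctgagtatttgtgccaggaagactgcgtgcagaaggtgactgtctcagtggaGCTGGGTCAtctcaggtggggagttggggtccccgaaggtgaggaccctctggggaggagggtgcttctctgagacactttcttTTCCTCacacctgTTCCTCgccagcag
IL10RA (chr11:117989695-117989944, plus strand): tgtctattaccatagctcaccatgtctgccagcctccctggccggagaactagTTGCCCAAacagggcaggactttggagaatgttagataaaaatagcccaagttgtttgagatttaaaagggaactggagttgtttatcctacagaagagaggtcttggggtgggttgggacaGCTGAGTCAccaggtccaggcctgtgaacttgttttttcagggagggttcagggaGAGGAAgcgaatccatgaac
IL6R (chr1:154405093-154405342, plus strand): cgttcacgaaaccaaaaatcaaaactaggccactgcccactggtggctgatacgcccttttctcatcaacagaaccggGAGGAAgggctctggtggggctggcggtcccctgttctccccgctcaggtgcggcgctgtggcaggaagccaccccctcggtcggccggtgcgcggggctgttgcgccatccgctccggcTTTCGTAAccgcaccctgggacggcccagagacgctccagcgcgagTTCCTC

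No motif was found in all 7 windows. IL1B held 3 C/EBP matches and none of the other motifs. The first IL1RN window held 1 AP-1 match and the second 1 C/EBP match. The first IL32 window held a pair of overlapping NF-kB matches that end 89 bases before the start. The second IL32 window held 1 antioxidant response element match and 2 of PU.1. IL10RA held 1 match each of C/EBP and PU.1, and 1 stretch, GCTGAGTCA, that matched both AP-1 and the antioxidant response element. IL6R held 1 C/EBP and 2 PU.1 matches. None of the 7 windows held TATAAA. Among all 35116 windows of this length in the table, 33.2% held the C/EBP letters, 23.6% PU.1, 10.9% the antioxidant response element, 10.7% the TATA box, 6.57% AP-1 and 5.21% NF-kB. A match is a match of letters, not a measured binding site. Of the 83 members 67 had windows in the table, 108 in all, and those of a gene can overlap. Of these windows 45.4% held the C/EBP letters, 28.7% PU.1, 17.6% the TATA box, 15.7% AP-1 and 10.2% NF-kB, and 14 of the 108 held the antioxidant response element.

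The genes of the IL-1 cytokines and their structural relatives, all but IL18 and IL33, are 9 and lie in a block of 360.1 kb on chromosome 2. In their order these are IL1A, IL1B, IL37, IL36G, IL36A, IL36B, IL36RN, IL1F10 and IL1RN. The members that rose stand at or near the ends of the block. Of the 6 genes between them 0 passed (0 also at an unadjusted p under 0.05, limma), beside 3.69% and 18.8% of all genes. Dim genes made up 4 of the 6, so the lack of calls there says little. Those 6 measured 2.72 to 4.78 in MK-8776 and 3.15 to 4.33 in DMSO, with changes from -0.155 (IL36G) to 0.465 (IL36RN). IL36RN encodes the antagonist of the IL-36 cytokines, and IL37 and IL1F10 encode family members with mainly anti-inflammatory roles. IL1A, the gene of IL-1α at the block's edge, measured 4.92 and 6.54 in MK-8776 against 5.17 and 4.44 in DMSO, with overlap and a change of 0.925 (SE 0.48, adjusted p = 0.354, limma). That value was 0.115 without MK-8776 replicate 2.

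**Figure D3:**
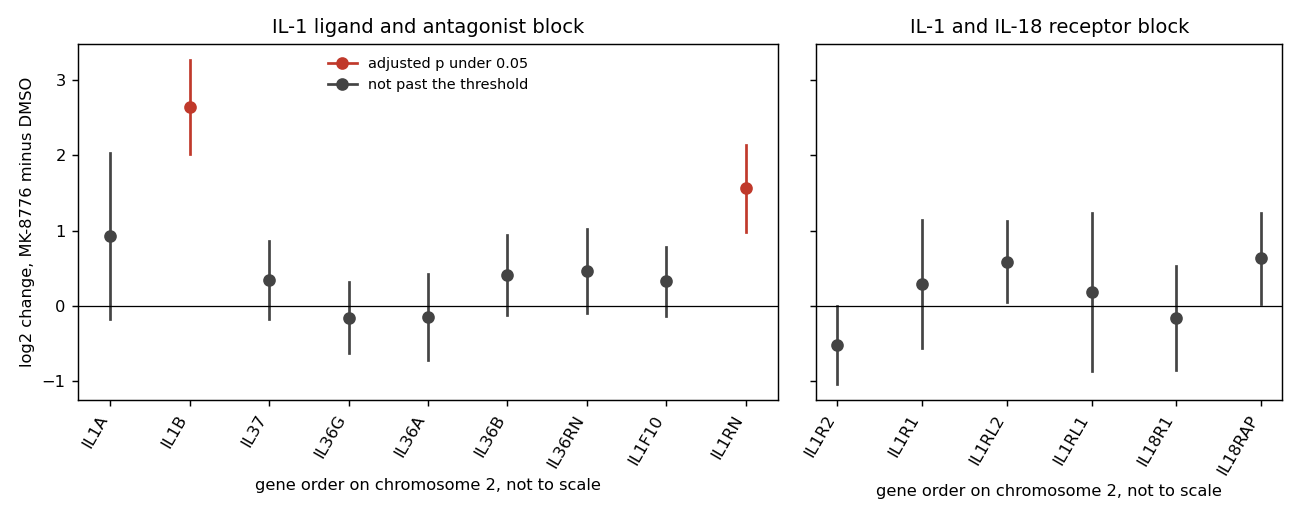
Log2 change (MK-8776 minus DMSO, points) with the 95% interval of the limma fit (bars) for the 9 genes of the ligand and antagonist block and the 6 genes of the receptor block, in gene order and not to scale. IL1B and IL1RN (red) stand at 2.65 and 1.56, and the 6 genes between them lie from -0.155 to 0.465.

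The receptors for IL-1, IL-33, IL-36 and IL-18 form a second block of 6 genes on chromosome 2, over 460.6 kb. Of these 0 passed (3 at an unadjusted p under 0.05, limma), beside 3.69% and 18.8% of all genes. IL1R1, the signalling receptor, measured 5.92 and 4.73 in MK-8776 against 5.26 and 4.80 in DMSO, a change of 0.295 whose 95% interval ran from -0.56 to 1.15 and whose sign turned (-0.30) without MK-8776 replicate 1. IL1R2, a decoy that binds IL-1 without signalling, measured 4.74 and 5.15 in MK-8776 against 5.48 and 5.45 in DMSO (change -0.52, adjusted p = 0.26). The coreceptor gene IL1RAP, which lies on chromosome 3, measured 10.15 and 10.30 in MK-8776 against 9.87 and 9.78 in DMSO (change 0.40, adjusted p = 0.349). Thus within the IL-1 system the agonist gene IL1B and the antagonist gene IL1RN passed. The agonist gene IL1A, the receptor chain genes IL1R1 and IL1RAP and the decoy gene IL1R2 did not. A difference between these roles was not tested.

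IL-18 is another caspase-1 product of the family. IL18 measured 6.06 and 6.57 in MK-8776 against 6.8 and 7.0 in DMSO, a change of -0.585 (SE 0.24, adjusted p = 0.241, limma). IL18BP, the gene of the protein that neutralises IL-18, measured 9.65 and 9.01 in MK-8776 against 8.57 and 8.44 in DMSO, a change of 0.825 (SE 0.26, adjusted p = 0.13, limma). Neither gene's groups overlapped and neither passed. The accessory receptor gene IL18RAP had 9.53 and 10.19 in MK-8776 against 9.34 and 9.11 in DMSO (change 0.635, adjusted p = 0.244), and IL18R1, the binding chain, had a change of -0.16 (adjusted p = 0.839).

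For IL-6 and IL-10 the ligand genes were low and the receptor genes carried the calls. IL6 was dim, at 3.36 and 3.75 in MK-8776 and 3.42 and 2.74 in DMSO. IL6ST, which encodes the signalling chain gp130, measured 8.67 and 8.99 in MK-8776 against 8.17 and 8.16 in DMSO, a change of 0.665 that did not pass (SE 0.22, adjusted p = 0.143, limma), beside the fall of IL6R. IL10 measured 4.31 and 3.86 in MK-8776 against 3.43 and 3.75 in DMSO (change 0.495, adjusted p = 0.324). IL10RB, the chain that IL-10 shares with IL-22, IL-26 and the lambda interferons, measured 10.79 and 10.98 in MK-8776 against 10.84 and 10.46 in DMSO (change 0.235, 95% interval -0.28 to 0.75).

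The largest negative changes after IL6R were also in receptor chains, and none of the 3 passed. IL3RA, the private chain of the IL-3 receptor, which is known as CD123, measured 6.41 and 6.11 in MK-8776 against 7.12 and 7.39 in DMSO. Its change of -0.995 (SE 0.22) missed the threshold at adjusted p = 0.0515 and passed it among genes above the median level (0.0286, limma). IL13RA1, which pairs with IL4R to bind IL-4 and IL-13, had 7.51 and 7.25 in MK-8776 against 8.11 and 8.17 in DMSO (change -0.76, adjusted p = 0.0962, and 0.0498 among genes above the median level). IL23R, the private chain of the IL-23 receptor, had 7.63 and 7.17 in MK-8776 against 8.41 and 7.88 in DMSO (change -0.745, adjusted p = 0.174). The groups did not overlap in any of these. Of the partners, IL4R measured 10.04 and 9.98 in MK-8776 against 10.35 and 10.11 in DMSO (change -0.22), and CSF2RB, the chain shared by IL-3, IL-5 and GM-CSF, had a change of 0.045. IL5RA, the IL-5 binding chain, measured 5.54 and 5.58 in MK-8776 against 6.29 and 5.59 in DMSO (change -0.38, adjusted p = 0.511). That change was -0.03 without DMSO replicate 1 and -0.73 without DMSO replicate 2.

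Of the chains shared by several interleukins, IL2RG and IL17RA lay above the upper quartile of all values (9.21) on every array and did not pass. The same held for IL10RB, IL1RAP and IL4R, given above. Not all shared chains were high. IL6ST and CSF2RB stayed under that quartile on every array, and IL12RB1 was dim. IL20RB measured 5.41 and 4.92 in MK-8776 against 4.70 and 4.77 in DMSO. IL2RG, the common gamma chain, measured 15.88 and 15.84 in MK-8776 against 15.62 and 15.67 in DMSO, a change of 0.215 (SE 0.20, adjusted p = 0.642, limma) with a 95% interval from -0.25 to 0.68. Of its partner chains, IL2RB had 4.32 and 4.43 in MK-8776 against 4.96 and 5.18 in DMSO (change -0.695, adjusted p = 0.12), IL15RA had a change of 0.03, and IL2RA, IL7R and IL21R were dim. IL17RA, the chain common to the IL-17 receptors, measured 12.19 and 12.21 in MK-8776 against 11.46 and 11.45 in DMSO. Its arrays agreed within 0.02 in each group, yet the change of 0.745 (SE 0.20) missed the threshold (adjusted p = 0.0899, limma). The fit draws each gene's spread toward that of all genes, and the part of this in the result was not tested. IL17RA passed with a variance trend (0.0203), with a robust trend (0.0232) and among genes above the median level (0.0443). IL27RA, the IL-27 binding chain, had a change of -0.035, which was 0.045 after quantile normalization. IL16, the gene of a CD4-binding chemoattractant, measured 10.28 and 10.63 in MK-8776 against 10.77 and 10.67 in DMSO (change -0.265, adjusted p = 0.592).

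By family, the calls were 2 of 21 genes of the IL-1 family (IL1B and IL1RN), 1 of 12 of the IL-10 family, 1 of 8 of the gp130 family and IL32 outside the families. The limma fit called 0 of 13 genes of the common gamma chain family (3 at an unadjusted p under 0.05), where IL4 and IL4R were counted. It also called 0 of 12 of the IL-17 family (1), 0 of 7 of the IL-12 family (1) and 0 of 4 of the common beta chain family (1). Of the 3 genes IL13, IL13RA1 and IL13RA2 it called 0 (1). Over all genes 3.69% were called and 18.8% had an unadjusted p under 0.05 (limma), and families this small cannot be told from those shares. The 4 genes IL3, IL5, IL13 and IL4 on chromosome 5 were all dim. The median change was 0.325 over the IL-1 family and -0.283 over the common beta chain family.

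The partner genes were counted from fixed lists, and the counts stand beside 1.66% of all genes called upward and 2.02% downward. Of 14 measured genes of IL-1 processing and signalling, 0 rose, SIGIRR fell and 13 did not pass, and the median change was 0.248 beside 0.005 over all genes. SIGIRR, which encodes an inhibitory relative of the IL-1 receptors, measured 7.47 and 7.28 in MK-8776 against 8.79 and 8.38 in DMSO, a fall of 1.21 (SE 0.23, adjusted p = 0.0299, limma). It missed the threshold in the test against a fold of 1.2 (0.0718). CASP1, which encodes the protease that matures IL-1β, had a change of 0.265 (adjusted p = 0.673), and the inflammasome sensor gene NLRP3 one of -0.75 (adjusted p = 0.112). Of 19 JAK, STAT and SOCS genes, SOCS2 fell, 0 rose and 18 did not pass, with a median of -0.015. Changes were positive for 9 of the 19 and negative for 10. The highest was 0.495, of SOCS3 (adjusted p = 0.256, limma). SOCS2, a feedback inhibitor induced by STAT5, measured 6.06 and 6.45 in MK-8776 against 7.30 and 7.43 in DMSO, a fall of 1.11 (SE 0.22, adjusted p = 0.0363, and 0.0938 against a fold of 1.2, limma). STAT5A and STAT5B, named like CISH after their values were seen, had changes of -0.705 and -0.72 and did not pass. CISH, another STAT5 target, measured 6.20 and 7.55 in MK-8776 against 7.74 and 7.89 in DMSO (change -0.94, adjusted p = 0.243). The MK-8776 arrays of CISH lay far apart, and leaving out replicate 1 or 2 of MK-8776 gave a change of -0.265 or -1.615.

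Of 13 genes of NF-kB feedback and cytokine transcript decay, 2 rose, 1 fell and 10 did not pass, and the 3 that passed were all of the ZFP36 family, which binds AU-rich elements and promotes decay of cytokine transcripts. ZFP36 measured 9.77 and 10.15 in MK-8776 against 8.59 and 8.81 in DMSO (rise of 1.26, adjusted p = 0.0259, and 0.0595 against a fold of 1.2, limma). ZFP36L1 measured 9.81 and 9.64 in MK-8776 against 8.31 and 8.14 in DMSO, a rise of 1.50 (SE 0.21, adjusted p = 0.0105, limma). ZFP36L2 measured 12.18 and 12.33 in MK-8776 against 13.95 and 14.18 in DMSO and fell by 1.81 (SE 0.21, adjusted p = 0.0062, limma). The family thus moved in opposite directions. The NF-kB inhibitor gene NFKBIA had a change of 0.445 (adjusted p = 0.359).

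Of 15 related cytokines and receptors without an IL symbol, CXCL8 rose and 14 did not pass. CXCL8 measured 15.98 and 16.42 in MK-8776 against 13.92 and 13.81 in DMSO, a rise of 2.34 (SE 0.23, adjusted p = 0.0031, limma). Its receptor genes CXCR1 and CXCR2 had changes of 0.60 and 0.09, and CXCR1 was dim.

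**Figure D4:**
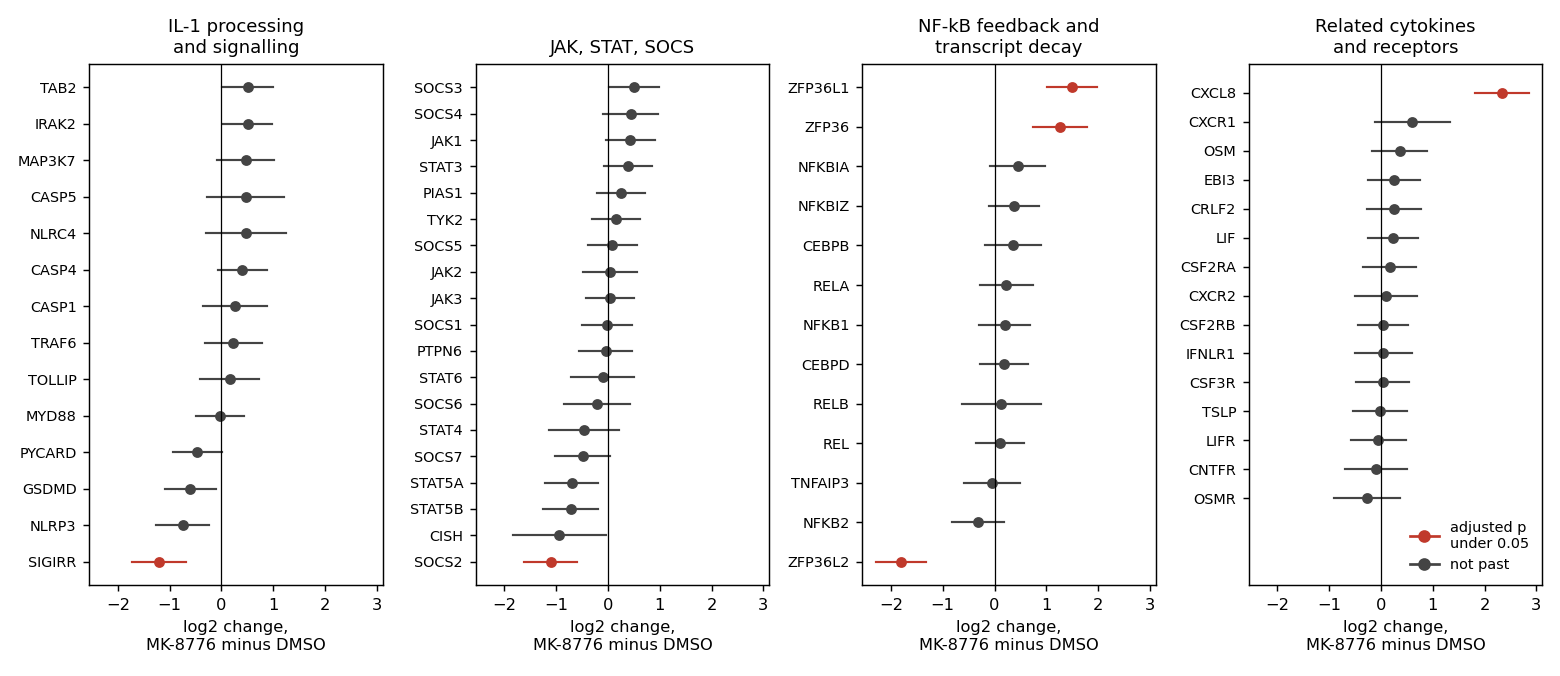
Log2 change (MK-8776 minus DMSO, points) with the 95% interval of the limma fit (bars) for the measured genes of the 4 partner lists. Red marks the genes past the threshold, which are SIGIRR, SOCS2, ZFP36, ZFP36L1, ZFP36L2 and CXCL8.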

How the data were processed

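Expression of total RNA from NB4-R4 cells was measured on 4 arrays. The deposited log2 values, 1 per feature and array, were made with RMA and genome build hg38, per the submitters' processing notes. Its version and settings are not given in these sources, and the log2 scale was taken from the values, which ran from 2.16 to 18.54. The folds rest on that scale. RMA makes arrays alike in distribution, so changes are relative to other genes. The table held 21448 features, of which 17709 had 1 gene symbol in the platform annotation, 0 several and 3739 none. All 17709 were found in RefSeq (GRCh38.p14). For 20 genes with several features the highest mean was kept, and each member had 1 feature. The values were fitted with limma 3.58.1 in R 4.3.3 (lmFit, eBayes, two-sided, Benjamini-Hochberg over 17687 genes), with 2 residual and 6.30 borrowed degrees of freedom. An exact permutation test of 2 against 2 arrays cannot go below p = 0.333. The number of arrays limits the precision. Scan dates and batches were not used here.

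Members, roles and lists were chosen with earlier results of these data known. Named are members past the threshold, the 4 largest changes each way, the fixed ligand and receptor sets, and list genes past the threshold. Others, such as the IL-36 genes, IL20, IL9R, NLRP3, CASP1, NFKBIA, CSF2RB, CXCR1, CXCR2, CISH, STAT5A, STAT5B, IL17RE, IL1RL1 and the motifs, were chosen after their values were seen. List genes without a single symbol on the array were not analysed here. The counts of calls over the members and over all genes, the members' median and each gene whose change is printed were recomputed after quantile normalization or median centring, among genes above the median level, with variance trends, with the replicate number as a block, over all features, against a fold of 1.2 and without each array. Family and list counts and medians were not.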

Additional observations from a re-analysis of the deposited data

How the results depend on the processing

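The direction of the 5 called members held under all 8 alternatives that kept every array and without each array in turn. Their calls held under the 8 except for IL6R against a fold of 1.2 (adjusted p = 0.0534) and IL10RA with the replicate block (0.0813). The number of members lower in MK-8776 was 3 among genes above the median level and 0 against a fold of 1.2 (4 at an unadjusted p under 0.05, limma). All genes past the threshold numbered 652 as deposited, 981 above the median level, 1185 with a variance trend, 1162 with a robust trend, 309 with the replicate block and 288 against a fold of 1.2. Leaving out 1 array gave 0 to 34 calls over all genes, 0 to 0 members higher and 0 to 0 lower, with a median member change of 0.065 to 0.135. The block of replicate numbers 1 and 2 also ended the calls of CD3E (0.0663), SIGIRR (0.0564), SOCS2 (0.0665) and ZFP36 (0.0503). Deviations of same-numbered arrays correlated at 0.139, and the labels tie the numbers to no shared batch. The cause of these losses was not tested.

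Signs turned in genes that did not pass. IL27RA was 0.045 after quantile normalization and -0.19 to 0.12 when 1 array was left out. On leaving out 1 array the ranges were -0.095 to 0.475 for IL15, -0.175 to 0.235 for IL15RA, -0.595 to 0.765 for IL17RE, -0.62 to 0.30 for IL18R1, -0.30 to 0.89 for IL1R1, -0.66 to 1.02 for IL1RL1, -0.30 to 0.13 for IL21R, -0.45 to 0.15 for IL36A, -0.095 to 0.625 for CASP1, -0.075 to 0.165 for CSF2RB and -0.215 to 0.395 for CXCR2. There is no detection call per feature, so dim members cannot be called absent.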

Other observations

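Some interleukin genes varied more within a group than between groups. IL1RL1, the IL-33 receptor gene, measured 6.61 and 8.29 in MK-8776 and 7.29 and 7.25 in DMSO. IL17RE, a receptor chain gene for IL-17C, measured 6.90 and 8.26 in MK-8776 and 6.85 and 8.14 in DMSO, so that the arrays of a group differed by 1.36 in MK-8776 and 1.29 in DMSO, beside a change of 0.085 between the groups. Within a group the median SD was 0.226 in MK-8776 and 0.163 in DMSO over the 83 members, and 0.170 and 0.163 over all genes. IL9R, the IL-9 receptor gene, had 6.32 and 6.15 in MK-8776 against 5.56 and 5.45 in DMSO (change 0.73, adjusted p = 0.103, limma), and IL20, the gene of an IL-10 family ligand, had 4.69 and 4.68 in MK-8776 against 4.23 and 3.49 in DMSO (change 0.825, adjusted p = 0.147, limma). Neither passed.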
